A study of Mus musculus with 2 samples.

Results

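Chromatin accessibility was examined at 6 genes of the epicardium, *Wt1*, *Tcf21*, *Upk3b*, *Upk1b*, *Lrrn4* and *Msln*, chosen by name from the 21755 protein-coding genes of the GENCODE M21 annotation on chromosomes 1 to 19 and X. The material was whole heart of wildtype (WT) FVB embryos at E11.5, profiled by ATAC-seq in 2 replicates, each a pair of hearts. Both replicates belong to 1 group, so no condition could be compared, and no test between groups was made. ATAC-seq uses a transposase to cut accessible DNA, and the data are the peaks called in each replicate. A shared region is the stretch covered by a peak in both replicates. For each gene, shared regions were collected within 1 kb of every annotated start and in the gene body plus 50 kb on each side, called the window here. Of 98924 shared regions in the genome, 73 lay in the 6 windows.

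The epicardium is the thin mesothelial layer on the outer surface of the heart. It is formed by cells of the proepicardium that spread over the myocardium, and some of its cells later leave the layer and give rise to fibroblasts and mural cells of the coronary vessels. Its genes include transcription factors, which also act in other mesothelia and in kidney or gonad precursors, and surface proteins that are typical of mesothelial cells. In whole heart the epicardium is a minor layer among cardiomyocytes and endothelial cells, and with such bulk material an accessible site in few cells and a weakly accessible site in many cells cannot be told apart.

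Signal is given as fold enrichment, the number of reads over the summit of a peak divided by the genome-wide background, with 1 added to both. The reads behind each value were recovered from the steps between fold enrichments, and the intervals given are exact Poisson 95% intervals that cover counting error only. Replicate 1 held 118027 peaks and replicate 2 held 114783, with background levels of 2.68 and 2.98 reads. Over all shared regions, the log2 ratio of replicate 1 to replicate 2 had an SD of 0.53 around a median of 0.11, and in 95% of regions the larger value was at most 1.89 times the smaller.

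Of the 6 genes, 5 had a shared region at an annotated start, and *Msln* had none. Over all protein-coding genes 68.1% had one, so a region at a start is common in this tissue and the count of 5 says little by itself. The signal at their starts was below the median of all genes. The median over the 5 genes of the highest mean fold enrichment was 9.58, against 24.5 over the 14820 genes with a region, whose quartiles were 14.2 and 33.5. Counted by start rather than by gene, 13 of the 22 distinct annotated starts held a shared region, against 58.2% of 93145 distinct starts in the genome.

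The 200 bases before the outermost start of each gene are shown because they are the DNA at which the starts differed, with a shared region over all or part of this stretch in every gene but *Msln*. Each is from the GRCm38 (mm10) reference, which is of another strain than the FVB embryos, and is written 5′ to 3′ in the direction of transcription. Capitals mark matches to any of 7 short motifs, searched on both strands. These were GGAATG, which TEAD factors bind, the E-box CAGCTG, which TCF21 and other bHLH factors can bind, a core of the WT1 motif with the letters GTGGGNG, the motif of GATA factors with the letters AGATAA, the T-box motif with the letters AGGTGTGA, the AP-1 motif with the letters TGANTCA, and the core of the CTCF motif. No matches printed here overlap each other.
*Wt1* upstream of the start, chr2:105126329-105126528, plus strand: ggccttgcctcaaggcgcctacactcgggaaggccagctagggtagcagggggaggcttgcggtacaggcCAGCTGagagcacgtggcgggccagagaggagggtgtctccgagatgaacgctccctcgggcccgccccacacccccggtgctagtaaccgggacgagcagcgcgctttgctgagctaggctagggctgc
*Tcf21* upstream of the start, chr10:22820175-22820374, minus strand: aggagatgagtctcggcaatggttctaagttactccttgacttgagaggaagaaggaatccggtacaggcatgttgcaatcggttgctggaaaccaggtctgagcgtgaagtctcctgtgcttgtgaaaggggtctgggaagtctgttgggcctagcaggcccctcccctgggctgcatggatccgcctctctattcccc
*Upk3b* upstream of the start, chr5:136038296-136038495, plus strand: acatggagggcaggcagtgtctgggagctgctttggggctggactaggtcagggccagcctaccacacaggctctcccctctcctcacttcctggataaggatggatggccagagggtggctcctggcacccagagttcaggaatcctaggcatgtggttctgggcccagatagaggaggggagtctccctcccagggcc
*Upk1b* upstream of the start, chr16:38800329-38800528, minus strand: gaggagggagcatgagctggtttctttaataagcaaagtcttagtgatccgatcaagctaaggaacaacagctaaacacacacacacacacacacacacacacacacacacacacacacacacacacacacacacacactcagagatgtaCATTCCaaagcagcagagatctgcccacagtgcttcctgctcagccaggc
*Lrrn4* upstream of the start, chr2:132880892-132881091, minus strand: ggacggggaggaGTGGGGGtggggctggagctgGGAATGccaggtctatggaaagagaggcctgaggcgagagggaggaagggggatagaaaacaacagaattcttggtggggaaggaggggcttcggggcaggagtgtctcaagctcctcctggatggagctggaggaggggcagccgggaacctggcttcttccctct
*Msln* upstream of the start, chr17:25754379-25754578, minus strand: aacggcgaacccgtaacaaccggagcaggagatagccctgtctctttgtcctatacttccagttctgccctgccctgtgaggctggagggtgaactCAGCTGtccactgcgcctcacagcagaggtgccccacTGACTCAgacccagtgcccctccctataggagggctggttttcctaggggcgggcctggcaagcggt

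The stretch before *Wt1* was rich in CpG dinucleotides, with 14 of them and a GC content of 68%, whereas the stretches before *Upk3b* and *Upk1b* held 0 and 1. *Wt1* was the only one of the 6 genes with a CpG-rich start, defined as a GC content of at least 55% and a ratio of observed to expected CpG of at least 0.6 within 500 bp of the outermost start. This class matters as a background, because 95.8% of CpG-rich genes but 50.7% of CpG-poor genes had a shared region at a start. Among the 5 CpG-poor epicardial genes, 4 had one. The stretch before *Msln*, where no region was found, held 1 E-box match and 1 AP-1 match. No motif was matched in the stretches before *Tcf21* and *Upk3b*.

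*Wt1* encodes a zinc finger transcription factor required in the epicardium and is a widely used marker of the layer. It lies at chr2:105126529-105173616 on the plus strand, and all 8 of its distinct annotated starts held a shared region. The first 5 starts were covered by a single region at chr2:105125997-105128049 that reached over the first exon. Fold enrichment there was 16.0 (95% interval 12.2 to 20.6, 58 reads) in replicate 1 and 16.8 (13.1 to 21.4, 66 reads) in replicate 2, with summits 10 bp apart. At 2053 bp this region was longer than 97.4% of all shared regions. It also held the start of *Wt1os*, the antisense RNA, and since ATAC-seq reads carry no strand the signal cannot be divided between the 2 genes.

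*Wt1* was also accessible at annotated starts inside the gene. The starts in the first intron were within 1 kb of a region with 5.98 in replicate 1 and 7.04 in replicate 2. A retained-intron transcript begins in intron 5, and the region there, centred 36.4 kb from the outermost start, had 11.1 (8.03 to 15.1) in replicate 1 and 8.04 (5.55 to 11.3) in replicate 2. These values were below the ones at the first exon in both replicates. A piece of 75 bp before the first exon and one of 212 bp in the first intron were also shared, but a summit lay outside each in at least 1 replicate, so at least 1 of the fold enrichments given for each was measured outside the piece.

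*Tcf21* encodes a bHLH transcription factor that is active in epicardial cells and is needed for cardiac fibroblasts. It lies at chr10:22817281-22820174 on the minus strand, with 2 starts that share 1 region of 1338 bp at chr10:22819108-22820445. Fold enrichment was 10.9 (7.80 to 14.8, 39 reads) in replicate 1 and 8.30 (5.75 to 11.6, 32 reads) in replicate 2. The mean of both was above that of 24.7% of CpG-poor genes with a region at a start. *Wt1*, by comparison, was above 17.4% of CpG-rich genes.

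*Upk3b* and *Upk1b* encode uroplakins, membrane proteins named for the urothelium that are also made by mesothelial cells. *Upk3b*, at chr5:136038496-136046487 on the plus strand, has 1 annotated start, and its region at chr5:136038295-136038682 covered the whole upstream stretch shown above. Fold enrichment was 7.33 (4.88 to 10.6, 26 reads) in replicate 1 and 7.54 (5.13 to 10.7, 29 reads) in replicate 2, with summits 5 bp apart. Taking the strongest region at a start of each gene, *Upk3b* had the lowest mean of the 5, above 17.0% of CpG-poor genes.

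*Upk1b*, at chr16:38773184-38800328 on the minus strand, has a start for the coding transcript and another for a retained-intron transcript. The coding start held a region at chr16:38800009-38800441 with 9.51 (6.67 to 13.2, 34 reads) in replicate 1 and 8.30 (5.75 to 11.6, 32 reads) in replicate 2. The other start held no peak in either replicate. The intervals of *Upk3b*, *Upk1b* and *Tcf21* overlapped in both replicates, so these 3 starts were not ordered at this depth.

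*Lrrn4* encodes a transmembrane protein with leucine-rich repeats that marks mesothelial cells. It lies at chr2:132868305-132880891 on the minus strand and has 1 annotated start. The region over the start itself, chr2:132880397-132881388, had 7.88 (5.33 to 11.3, 28 reads) in replicate 1 and 7.29 (4.93 to 10.4, 28 reads) in replicate 2. A stronger region, chr2:132879065-132880267, had 19.6 (15.3 to 24.6, 71 reads) in replicate 1 and 14.8 (11.3 to 19.1, 58 reads) in replicate 2. It was centred on coding exon 2, 1.23 kb from the start, and lay only in part within the 1 kb limit, with its summits outside in both replicates. A further piece of 254 bp upstream had a summit outside it, with 7.88 and 4.27. The higher figure of 17.2 for *Lrrn4* therefore describes exon 2 rather than the start, at which the mean was 7.58.

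*Msln* encodes mesothelin, a surface glycoprotein anchored in the membrane of mesothelial cells. It lies at chr17:25748613-25754378 on the minus strand, and none of its 8 distinct starts had a shared region within 1 kb. The gene body held none either, and the shared region nearest to the outermost start was 19100 bp from it. Among genes without a region at a start, 60.3% had the region nearest to their outermost start farther away than this. Distances from the other starts were not measured. Replicate 1 alone had a weak peak 1.60 kb before the outermost start, with a fold enrichment of 3.80 from 13 reads, and replicate 2 had no peak there. A peak list shows only signal above the caller's limit, and the lowest fold enrichment listed was 2.72 in replicate 1 and 2.51 in replicate 2, each from 9 reads. The lists do not match exactly the p-value limit and read extension stated in the methods, so the signal that an absent peak leaves possible, and the width over which the recovered reads were counted, are not known exactly.

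**Figure D1:**
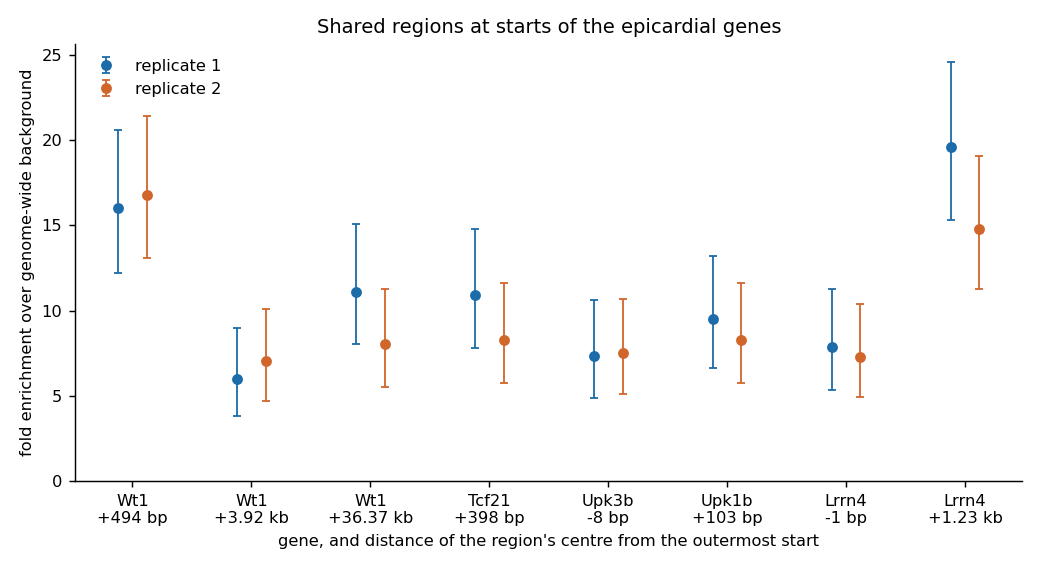
Fold enrichment over the genome-wide background (vertical axis, from 0) of the 8 shared regions at a start whose summits lay inside the region in both replicates, by gene and distance of the region's centre from the outermost start. Points are single replicates and bars are Poisson 95% counting intervals. The region on exon 2 of *Lrrn4* and the first exon of *Wt1* stood highest, at 14.8 to 19.6, and *Msln* is absent because it had no region.

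Against all genes with a region at a start, the highest mean fold enrichment was 17.2 for *Lrrn4*, 16.4 for *Wt1*, 9.58 for *Tcf21*, 8.90 for *Upk1b* and 7.44 for *Upk3b*. The share of genes with a lower value was 31.5%, 29.7%, 14.9%, 13.4% and 9.81% in the same order. All 5 thus lay below the median of 24.5, and each also lay below the median of its own class, 28.9 for CpG-rich and 18.5 for CpG-poor genes.

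**Figure D2:**
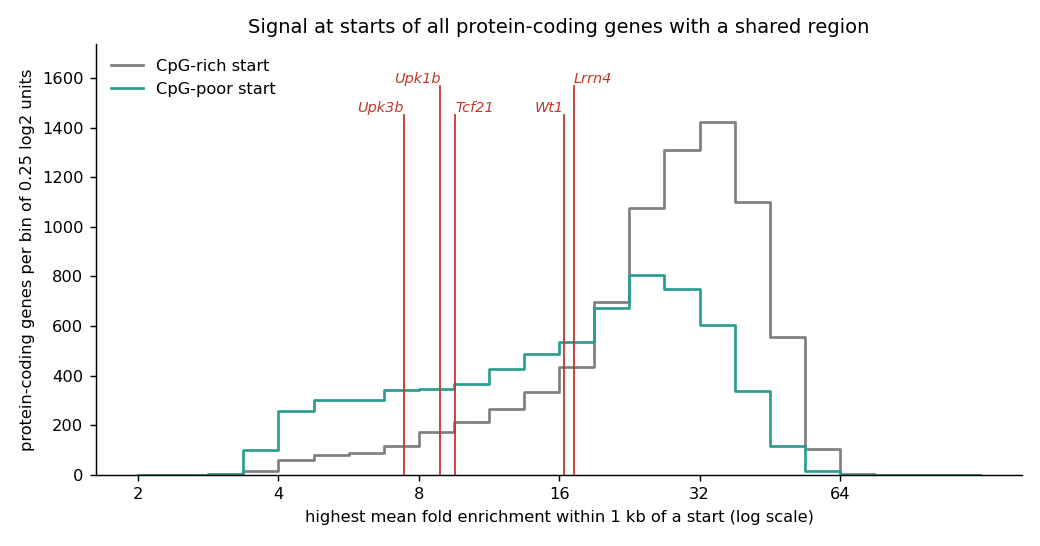
Number of protein-coding genes (vertical axis) by their highest mean fold enrichment within 1 kb of a start (horizontal axis, log scale), for CpG-rich and CpG-poor starts, with red lines at the 5 epicardial genes. The 5 lines lie between 7.44 and 17.2, left of the peaks of both curves.

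The windows held 11 regions at the genes' own starts, 15 at starts of other protein-coding genes and 47 distal regions, defined as lying over 1 kb from every protein-coding start. Of the distal regions, 12 lay in the body of the epicardial gene, 20 upstream and 15 downstream. Their mean fold enrichment ran from 3.66 to 15.6 with a median of 5.40, close to the median of 5.74 over all 78093 distal regions, whose quartiles were 4.54 and 8.20. Over all genes, 83.9% had at least 1 distal region in the window, and all 6 epicardial genes did.

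The windows of *Wt1* and *Upk1b* were the most densely covered with all listed peaks. *Wt1* had 22 shared regions, 17 of them distal and none at the start of another coding gene. Its 11.6 distal regions per 100 kb exceeded the density of 96.8% of protein-coding genes. *Upk1b* had 17 regions with 13 distal, and its 10.2 per 100 kb exceeded 94.8% of genes. By the density of all shared regions, the place of *Wt1* rested on weaker peaks. At q-values of at most 1e-10 in both replicates, this density fell from 15 to 4.76 per 100 kb at *Wt1* and from 13.4 to 6.29 at *Upk1b*. It was 5.67 at *Msln*, 5.56 at *Upk3b*, 4.44 at *Lrrn4* and 2.92 at *Tcf21*. Regions at starts of neighbouring genes are included, and they made up 8 of the 11 regions of *Msln* before this limit. Distal regions alone were not counted at this limit.

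The other windows ranked lower. *Tcf21* had 5.83 distal regions per 100 kb, above 77.7% of genes, and *Upk3b* and *Lrrn4* had 3.70 and 3.55, above 58.3% and 56.6%. *Msln* had 2.84, above 49.0% of genes, and the median over all genes was 2.89. Counting all shared regions, the *Msln* window had 10.4 per 100 kb, and 8 of its 11 regions lay at starts of neighbouring genes. With 25 kb on each side in place of 50 kb its density was 5.38, the lowest of the 6 at that width.

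**Figure D3:**
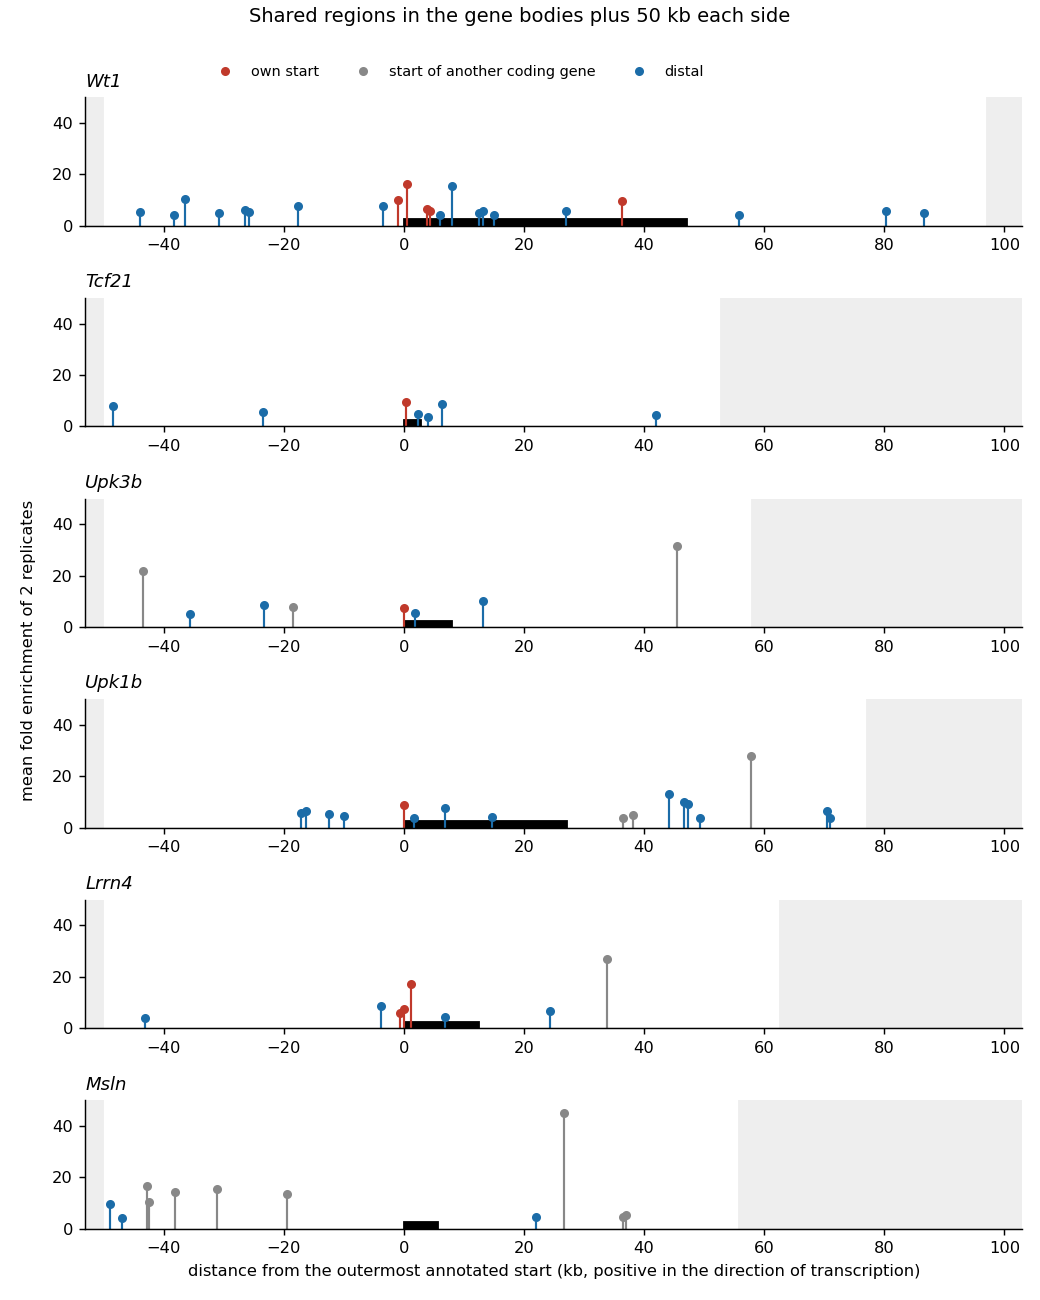
Shared regions in each gene's window, at their distance from the outermost start (horizontal axis, kb, positive in the direction of transcription), with the height of each line giving the mean fold enrichment of the 2 replicates. Black bars are gene bodies and grey areas lie outside the window. *Wt1* shows 17 distal regions, *Msln* shows none in its body, and starts of neighbouring genes reach 45.0.

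By the mean of both replicates, the strongest distal region of the 6 windows was in *Wt1*. In replicate 2 alone, a region in the *Upk1b* window was slightly higher, with overlapping intervals. The *Wt1* region lay at chr2:105134005-105135019 in intron 3, 7.98 kb from the outermost start, with 16.3 (12.5 to 20.9, 59 reads) in replicate 1 and 14.8 (11.3 to 19.1, 58 reads) in replicate 2. These intervals overlapped those at the first exon of *Wt1*, so the intronic site and the start were not distinguishable in signal. The next strongest lay upstream within *Wt1os*, at 36.4 kb with 10.6 and 10.3 in replicates 1 and 2, within 1 kb of a *Wt1os* start, and at 17.6 kb with 8.15 and 7.29. In the body of *Wt1*, 6 distal regions were found, 4 of them in intron 3.

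*Tcf21* had its strongest distal region 6.41 kb from the outermost start, beyond the end of the gene, at chr10:22813372-22814159, with 9.51 in replicate 1 and 7.79 in replicate 2. This was close to the signal at its start. Regions 48.5 kb and 23.5 kb upstream followed, the first with 9.24 in replicate 1 and 6.54 in replicate 2 and the second with 5.70 and 5.53.

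The *Upk3b* window had its strongest distal region in intergenic DNA downstream, at chr5:136051418-136052014 and 13.2 kb from the start, with 11.1 in replicate 1 and 8.80 in replicate 2. Both values exceeded those at the *Upk3b* start, within overlapping intervals. A region in the neighbour *Dtx2* had 9.24 and 7.54, and a region in the gene body of *Upk3b*, centred on intron 3, had 6.52 and 4.27.

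The 3 strongest distal regions of the *Upk1b* window lay in the body of the neighbour *B4galt4*. Replicate 1 and replicate 2 gave 10.9 and 15.1 at chr16:38755434-38756925, and 10.9 and 9.30 at chr16:38753388-38754024. The region ranked next, chr16:38752861-38753229, had 8.69 in replicate 1, but its 9.30 in replicate 2 is the same peak and summit as in the region before it. In *Upk1b* itself the strongest distal region was in intron 1, at chr16:38793074-38793682 and 6.95 kb from the start, with 7.06 in replicate 1 and 8.55 in replicate 2. Position does not assign any of these regions to a target gene.

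*Lrrn4* had its strongest distal region 3.85 kb upstream, at chr2:132884479-132885010, with 8.96 (6.22 to 12.5) in replicate 1 and 8.04 (5.55 to 11.3) in replicate 2. A region in the neighbour *Crls1* had 6.25 and 7.29, and a weak region in intron 3 of *Lrrn4* had 5.16 and 3.27. The 3 distal regions near *Msln* had 10.6 and 8.80 at 48.9 kb upstream, 4.89 and 4.53 downstream, and 4.62 and 3.77 at 46.9 kb upstream.

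The 201 bases around the summits are printed for 3 distal regions, each the strongest of its window outside the bodies of other coding genes: the intron 3 region of *Wt1*, the intron 1 region of *Upk1b* and the region upstream of *Lrrn4*. All are from GRCm38, given on the plus strand 5′ to 3′ whatever the strand of the gene, with the same motif matches in capitals.
*Wt1* distal region, chr2:105134330-105134530, plus strand: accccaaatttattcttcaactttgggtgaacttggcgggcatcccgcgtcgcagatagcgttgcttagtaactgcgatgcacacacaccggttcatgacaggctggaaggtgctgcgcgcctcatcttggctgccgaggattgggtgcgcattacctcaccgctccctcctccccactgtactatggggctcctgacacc
*Upk1b* distal region, chr16:38793251-38793451, plus strand: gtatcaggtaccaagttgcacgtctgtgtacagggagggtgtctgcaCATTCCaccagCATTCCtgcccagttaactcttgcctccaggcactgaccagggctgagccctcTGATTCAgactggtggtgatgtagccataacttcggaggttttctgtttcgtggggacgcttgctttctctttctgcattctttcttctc
*Lrrn4* distal region, chr2:132884738-132884938, plus strand: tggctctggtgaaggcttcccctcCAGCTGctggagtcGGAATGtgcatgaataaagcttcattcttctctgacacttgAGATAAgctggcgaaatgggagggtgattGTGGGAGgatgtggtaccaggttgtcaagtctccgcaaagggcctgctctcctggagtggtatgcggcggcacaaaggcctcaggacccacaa

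The *Wt1* sequence held none of the 7 motifs, while the *Upk1b* sequence held 2 TEAD matches and 1 AP-1 match and the *Lrrn4* sequence held 1 match each to TEAD, the E-box, GATA and the WT1 core. Counts over all regions were made in the same 201 bases for regions whose summits lay inside in both replicates. Among 8 regions at the epicardial genes' own starts, 4 held a WT1 core (50.0%), against 27.3% of 18375 regions at starts in the genome, and 2 held TEAD (25.0%, against 8.64%). Single regions held the E-box (12.5%, against 14.4%), GATA (12.5%, against 6.26%) and AP-1 (12.5%, against 3.95%), and none held the T-box motif (0.403% in the genome) or the CTCF core (3.16%). Of the 4 regions with a WT1 core, 3 were in *Wt1* and the other was at the start of *Upk1b*.

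Among 41 distal regions, the E-box was matched in 10 (24.4%, against 19.5% of 68598 distal regions in the genome), and TEAD in 6 (14.6%, against 16.8%). The WT1 core, GATA and AP-1 were each matched in 7 (17.1%), against 17.9%, 20.9% and 9.89%. The CTCF core was matched in 3 (7.32%, against 5.56%) and the T-box motif in 1 (2.44%, against 0.949%). With so few regions these shares are descriptions only. A match does not show that a factor binds, and a window without one says only that these letters are not in it.

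Starts of neighbouring genes gave the highest values in 4 of the windows. Near *Upk3b*, *Rasa4* had 31.8 in replicate 1 and 31.2 in replicate 2 and the outer *Dtx2* start had 20.4 and 23.4. *B4galt4*, near *Upk1b*, had 30.2 and 25.6, and *Crls1*, near *Lrrn4*, had 25.3 and 28.4. The region shared by *Chtf18* and *Rpusd1*, 26.7 kb from *Msln*, had 43.7 and 46.3, the highest of all 73. In both replicates these values at *Rasa4*, the outer *Dtx2* start, *B4galt4* and *Crls1* were above every value at the epicardial gene of the same window, and *Msln* had none to compare. Other neighbours of *Msln* were lower, with 15.8 and 15.3 at *Haghl* and *Ccdc78*, 14.7 and 14.1 at *Fam173a*, 16.6 and 17.1 at *Metrn*, 11.4 and 15.8 at *Narfl* and 5.70 and 5.28 at *Gng13*.

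Lists of marker genes place the 6 genes beside other cell types of the heart. Of 17 other epicardial or mesothelial genes, 15 had a shared region at a start (88.2%), with a median of 8.63 for the highest mean fold enrichment. These were 6 of 6 CpG-rich genes, against 95.8% of that class, and 9 of 11 CpG-poor genes, against 50.7%. The transcription factor genes *Bnc2* and *Tbx18* and the sialomucin gene *Podxl* stood highest at 23.6, 23.3 and 31.7. The keratin gene *Krt18*, the mucin gene *Muc16* and the Wnt pathway ligand gene *Rspo1* stood lowest at 5.50, 4.82 and 4.18, and *Dmkn* and *Gpm6a* had no region. Their range of 4.18 to 31.7 covered that of the 5 epicardial genes with a region.

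All 12 cardiomyocyte genes, 11 of them CpG-poor, had a region, with a median of 15.2 and a range of 10.6 to 24.0. *Actc1*, *Tnnt2* and *Actn2*, genes of the contractile apparatus, had 24.0, 22.9 and 22.0, and *Myh7*, *Myl2* and *Nkx2-5* had 11.9, 11.4 and 10.6. *Tcf21*, *Upk1b* and *Upk3b* had lower means than each of the 12, and *Wt1* was within their range, as was *Lrrn4* by its exon 2 region but not by the region at its start. In each replicate the intervals of *Tcf21* and of *Upk1b* held the values of *Myh7*, *Myl2* and *Nkx2-5* there, so these were not ordered at this depth. All 10 endothelial or endocardial genes had a region as well, with a median of 10.5. Of these, 8 were CpG-poor and 2 CpG-rich, with the same class shares of 50.7% and 95.8% as background for both lists. *Kdr*, a receptor of VEGF, *Nfatc1* and *Tek* stood highest at 16.5, 15.8 and 14.1, and *Erg*, *Emcn* and *Pecam1* lowest at 8.40, 6.97 and 4.33.

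Of 6 liver genes, all CpG-poor, only *Ttr* had a region, at 4.33, and *Alb* and *Afp* had none, where 50.7% of all CpG-poor genes had one. Of 6 neural genes 3 had one, among them *Pou4f1* at 19.1 and *Tubb3* at 10.3. These were 3 of the 5 CpG-rich neural genes, a class in which 95.8% of all genes had a region. Blood genes, all CpG-poor, had a region in 6 of 7 cases, against 50.7% of that class, with a median of 16.7. Among them, *Klf1* and *Hbb-bt* had 24.2 and 17.8, *Hba-a1*, *Gata1* and *Spi1* had 15.5, 13.7 and 4.72, and *Ptprc* had no region. The part of blood and other cells in the signal at the epicardial genes was not tested.

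**Figure D4:**
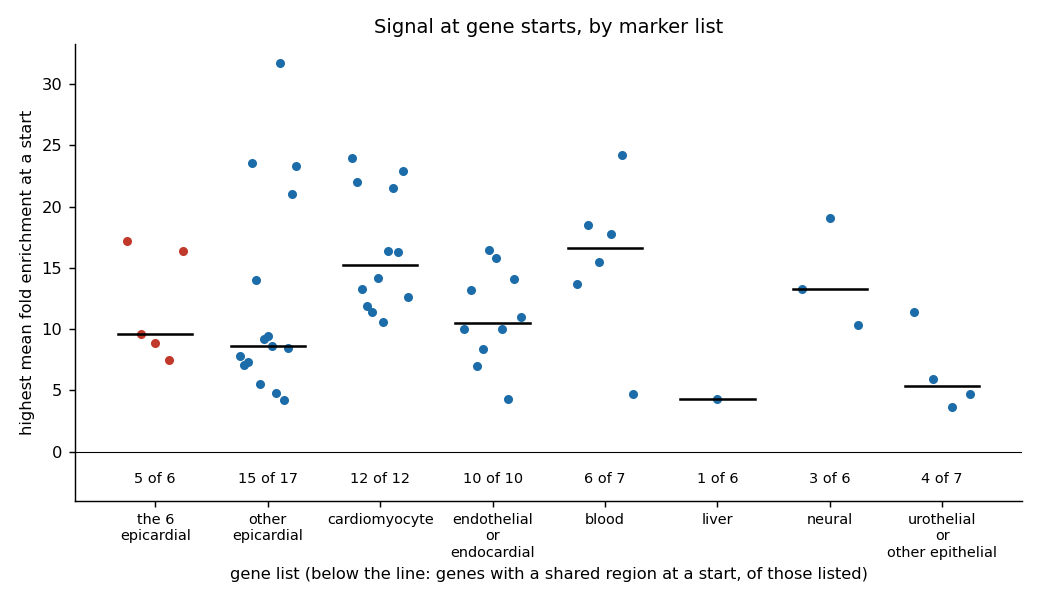
Highest mean fold enrichment at a start (vertical axis) for each gene with a shared region, by marker list, with black lines at the medians and the number of genes with a region of those listed below the zero line. The 5 epicardial genes (red, median 9.58) overlap the other epicardial list (median 8.63), and the cardiomyocyte list has a median of 15.2.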

How the data were processed

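Single-end reads were trimmed by the authors with Trim Galore (0.6.6) and Cutadapt and aligned with Bowtie2 (2.4.2) to GRCm38, also called mm10. SAMtools (1.12) then served to take out duplicates and poorly mapped reads, as the study's methods state. Peaks were called with MACS2 without a local background, in each replicate and not on pooled reads. The deposited lists give fold enrichment, a ratio at the summit. They also hold the authors' −log10 p and −log10 q values and a score, which here served only as limits on peaks or not at all, and the summit offset, deposited as another column. The lists give no read totals, and depth is known only through the recovered reads, which were whole within 0.001 in 100% of peaks. Reads in repeated sequence are underrepresented, because poorly mapped reads were removed.

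Shared regions were the stretches covered in both lists by at least 1 bp, equal to those of bedtools 2.31.1. Starts came from GENCODE M21, every distinct transcript start counted once, and sequence from the GRCm38.p6 reference. The value of a gene was the highest mean of both replicates among regions touching 1 kb on each side of a start. The text names each epicardial gene with its starts, its start regions and the 3 distal regions of highest mean fold enrichment, neighbours with a region of a window, and the 3 highest and 3 lowest genes of marker lists, of which some are not reported here. Intron 1 of *Upk1b* was named after its values were seen. Genes, lists and motifs were chosen with earlier results of these data known.

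Alternatives were a reciprocal overlap of at least 50%, stricter p-value and q-value limits, each replicate alone, other start and window widths, starts of coding transcripts only, summits inside the start window, and distal regions only. The overlap, start and motif code was tested on simulated data. Scripts ran under Python 3.11.15 with pandas 2.3.3, NumPy 2.4.6, SciPy 1.17.1 and Matplotlib 3.10.9.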

Additional observations from a re-analysis of the deposited data

How the results depend on the processing

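The count of 5 epicardial genes with a shared region at a start was the same under all 9 alternatives, and the count of 13 starts was also 13, except that it was 11 with starts of coding transcripts only. The median of the highest mean fold enrichment was 8.90 to 9.58, and 8.30 to 10.9 with 1 replicate alone. Only *Lrrn4* moved by more than the spread between replicates, from 17.2 to 7.58 within 500 bp of a start or with both summits inside the start window. The 73 shared regions of the windows became 35 at q-values of at most 1e-10, 48 with 25 kb and 130 with 100 kb on each side, and 47 as distal regions only. They were 77 to 79 with 1 replicate alone, 59 at a reciprocal overlap of at least 50%, 69 at the stricter p-value limit, and 66 where stretches that share a peak were counted once, an alternative chosen after seeing the data. The median density over the 6 windows, 8.90 per 100 kb, became 7.96 at a reciprocal overlap of at least 50%, 8.43 at p-values of at most 0.00001, 5.16 at q-values of at most 1e-10, 10.3 with 25 kb, 9.43 with 100 kb and 4.77 for distal regions, and 9.20 to 9.57 with 1 replicate alone. The share of all genes with a region at a start, 68.1%, became 66.8% at a reciprocal overlap of at least 50%, 67.8% and 63.1% under the stricter p-value and q-value limits, 66.9% within 500 bp, 69.9% within 2 kb, 66.8% with starts of coding transcripts, 66.7% with both summits inside the start window, and 69.2% to 69.4% with 1 replicate alone. These changes follow from the construction of each alternative, which tests fewer or more peaks, starts or bases. No paired analysis was possible because both samples belong to 1 group and no test was made. With 1 group, 2 replicates and peaks of as few as 9 reads, weak sites in few cells may be missing from both lists.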

Other observations

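Genes of the urothelium and other epithelia, a list that shares the uroplakin family with the 2 epicardial uroplakins, had a shared region at a start in 4 of 7 cases, with a median of 5.31 for the highest mean fold enrichment. These were 4 of its 6 CpG-poor genes, against 50.7% of all CpG-poor genes, while its CpG-rich gene, *Cdh1*, had none. *Upk2* had 5.43 in replicate 1 and 4.02 in replicate 2, *Upk1a* had 3.80 and 3.52, and *Upk3a* had no region. *Upk1a* was below the intervals of *Upk1b* and *Upk3b* in both replicates. *Upk2* was below the interval of *Upk1b* in both replicates but below that of *Upk3b* in replicate 2 only. These comparisons leave out the counting error of *Upk1a* and *Upk2* themselves, so they do not order the starts. *Epcam*, an epithelial adhesion gene, stood highest in the list at 11.4, *Trp63* had 5.90, and *Krt5* had no region.

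Peaks of a single replicate added 17 sites to the 6 windows, 11 in replicate 1 with fold enrichments of 3.26 to 4.89 and 6 in replicate 2 with 3.02 to 6.54. The highest was 22.8 kb upstream of *Lrrn4*, with 6.54 from 25 reads in replicate 2 and no peak in replicate 1. Near *Wt1*, single-replicate peaks of replicate 1 and of replicate 2 lay beside each other without touching, at 2.82 kb and 2.54 kb upstream of the outermost start, with 4.07 and 4.02.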
